A study of Mus musculus with 46 samples.

Results

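The genes Krt20, Fam83f, Serpina12, Clps, Ckm, Stk39, Lgi2 and Lama1 were chosen by the measured difference in their levels between MycVD and Myc liver tumours of the mouse, 3 of them higher (Krt20, Fam83f, Serpina12) and 5 lower (Clps, Ckm, Stk39, Lgi2, Lama1) in MycVD tumours. They are 8 of the 21671 genes of an RNA sequencing table of 46 libraries, and all 8 were among the 14566 genes that reached 1 eRPKM (the deposited unit, RPKM counted over exons) in 3 or more animals. A gene that is high in 1 group only can pass this filter through that group alone, in which case a difference from the other groups is built in. The difference that chose them is given below as a description with no test.

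MycVD tumours came from mice with the tet-MycVD and LAPtTA transgenes, in which the Myc transgene carries the substitution V394D and was on (11 libraries from 10 animal IDs). Myc-off tumours came from tet-Myc/LAPtTA mice that had eaten food with doxycycline for 16 hours, which switches the transgene off (8 libraries from 3 IDs). Myc tumours came from tet-Myc/LAPtTA mice with the transgene on (16 libraries from 7 IDs), and control liver was normal liver (11 libraries from 11 IDs). All mice were of the FVB strain, and the sources used here do not give ages. The transactivator LAPtTA is active in liver, where it turned the transgene on before birth, so these tumours arose with the transgene on from the fetal stage. Tumours lettered A to D carried the same ID and were averaged, on the assumption that an ID is an animal. The ID numbers of the MycVD mice are all higher than those of the Myc mice, and those of the Myc-off mice are higher still, so date or batch and group cannot be told apart.

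Myc binds DNA with its partner Max at the letters CACGTG and activates genes there. It also binds the transcription factor Miz1, encoded by Zbtb17, and the Myc-Miz1 complex is known to repress genes. V394D, a change in the part of Myc that touches Miz1, impairs that contact and leaves the one with Max intact. The 8 genes have no common pathway: they encode an epithelial filament protein, an adaptor of casein kinases, a secreted protease inhibitor, a cofactor of fat digestion, an enzyme of muscle energy supply, a kinase of ion transport, a secreted ligand and a chain of the basement membrane.

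The depth recovered from the steps of the deposited values was 6.18 to 10.6 M reads (mega, SI prefix) per MycVD library (median 7.81), 3.25 to 10.4 per Myc-off library (median 7.14), 7.27 to 12.6 per Myc tumour library (median 9.65) and 5.63 to 8.95 per control library (median 7.31). Hepatocyte markers, the check of the labelled tissue, were present in all libraries, with a summed level of 849 to 1318 eRPKM in MycVD libraries, 772 to 1935 in Myc-off libraries, 636 to 1181 in Myc tumour libraries and 1063 to 1893 in control libraries (9 markers). Libraries of the same group differed by more than counting noise in all 258 pairs (chi-square divided by its degrees of freedom of 3.33 or more). In bulk tissue, fewer cells of a type and less RNA per cell cannot be told apart.

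The promoter letters of Krt20 and Lgi2 are shown because the mean of Krt20 was higher and that of Lgi2 lower than in Myc tumours both in MycVD and in Myc-off tumours, although MycVD and Myc IDs overlapped for Lgi2. The pattern is not particular to them, since the other genes except Clps also had means on the same side in both groups. Stk39 IDs were below all Myc tumour IDs in both. RefSeq promoters of build GRCm38.p6 were matched for 5 of the 8 genes (Krt20, Serpina12, Ckm, Stk39 and Lgi2). The 250 bases before the start of Krt20 lie at chr11:99438154-99438403 on the minus strand, and those of Lgi2 at chr5:52566307-52566556 on the minus strand. Both are written 5′ to 3′, and capitals mark the letters TATAAA.
Krt20: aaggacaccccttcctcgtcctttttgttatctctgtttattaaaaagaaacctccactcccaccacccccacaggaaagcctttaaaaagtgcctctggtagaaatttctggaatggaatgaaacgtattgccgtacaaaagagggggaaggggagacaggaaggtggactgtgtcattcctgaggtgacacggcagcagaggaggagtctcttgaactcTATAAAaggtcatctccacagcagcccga
Lgi2: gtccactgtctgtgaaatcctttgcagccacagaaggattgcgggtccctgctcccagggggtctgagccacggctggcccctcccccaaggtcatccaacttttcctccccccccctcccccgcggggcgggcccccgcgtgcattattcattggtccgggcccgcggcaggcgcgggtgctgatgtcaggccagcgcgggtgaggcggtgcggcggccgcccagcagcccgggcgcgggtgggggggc
Windows of 300 bases (250 before the start and 50 after it) were searched on both strands. The Myc-Max letters CACGTG were in 0 of the 5 windows and in 7.15% of all 32851 promoters. The letters ATCGAT, searched for Miz1, were also in 0 of the 5, against 0.925% of all promoters. TATAAA, a search added after the others, was in 1 of the 5, that of Krt20, where it starts 29 bases before the start, and in 13.6% of all promoters. A match describes the letters of the window only.

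Krt20 encodes a keratin of intermediate filaments, known from the epithelium of gut, stomach and bladder. Its level in MycVD tumours was 5.40 eRPKM at the lowest, 15.1 at the median and 37.1 at the highest over 10 IDs. The 3 Myc-off IDs stood at 9.85 (ID150584), 33.6 (ID151964) and 18.0 (ID153344) eRPKM. Myc tumours had 0.739, 1.18 and 3.44 eRPKM as the lowest, median and highest of 7 IDs. Of the 11 control libraries 10 were at 0, where 3 reads would have given between 0.186 and 0.276 eRPKM, and the last, ID128993, was at 0.0579 eRPKM, from 1 read. MycVD and Myc-off tumours overlapped widely, all of them lay above every Myc tumour ID, and every Myc tumour library lay above every control library. The means were 17.9 ± 9.61 eRPKM in MycVD, 20.5 ± 12.1 in Myc-off, 1.497 ± 0.905 in Myc tumours and 0.00526 ± 0.0175 in control liver (SD over IDs). The log2 fold change was 3.12 ± 0.28 for MycVD over Myc tumours (SE, on the scale of log2(eRPKM + 0.5), as all fold changes here), a rise exceeded by 11 of the genes tested, and 3.32 ± 0.39 for Myc-off over Myc tumours. The values rest on 110 or more reads in each MycVD library and on 7 or more in each Myc tumour library.

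Fam83f encodes a member of the FAM83 family, whose proteins bind kinases of the casein kinase 1 group and place them in the cell. In MycVD tumours its lowest, median and highest levels over IDs were 1.89, 7.17 and 26.1 eRPKM. The Myc-off IDs stood at 0.363 (ID150584), 9.67 (ID151964) and 1.06 (ID153344) eRPKM. Myc tumours spanned 0.298 to 1.29 eRPKM with a median of 0.711, and control liver spanned 1.01 to 5.28 with a median of 2.15. Myc tumours were thus the lowest group by median, below control liver, with which their range overlapped slightly, and MycVD tumours the highest, with no overlap with Myc tumours. On the log2 scale, the difference was 2.71 ± 0.42 for MycVD over Myc tumours and 1.43 ± 0.37 for MycVD over control liver, where ranges overlapped. The high Myc-off mean rested on 1 tumour: in ID151964, tumour B was at 17.7 eRPKM and tumour A at 1.68. Without ID151964 the difference of Myc-off from Myc tumours was -0.016, against 1.03 ± 0.59 with it.

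Serpina12 encodes vaspin, a serine protease inhibitor that is secreted and known from fat tissue. Its lowest, median and highest levels over IDs were 2.12, 6.29 and 34.0 eRPKM in MycVD tumours. The Myc-off IDs were at 3.69 (ID150584), 1.33 (ID151964) and 1.06 (ID153344) eRPKM. Myc tumours had 0.380, 0.890 and 1.68 eRPKM, and control liver 4.79, 20.1 and 34.4. Control liver was thus the highest group by median, MycVD tumours came next and overlapped with it, and Myc-off and Myc tumours came last and overlapped with each other. Log2 fold changes were 2.51 ± 0.41 for MycVD over Myc tumours, -1.11 ± 0.36 for MycVD over control liver and -3.63 ± 0.40 for Myc tumours over control liver. Of the 3 genes higher in MycVD tumours, this was the one whose level there lay below control liver.

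Clps encodes colipase, the cofactor of pancreatic lipase, and its known place is the acinar cell of the pancreas. In MycVD tumours its lowest, median and highest levels over IDs were 0, 1.16 and 5.99 eRPKM, and 3 reads would have given 0.778 eRPKM in the library listed at 0. The Myc-off IDs stood at 97.4 (ID150584), 10.02 (ID151964) and 17.3 (ID153344) eRPKM. Myc tumours had 10.4, 23.3 and 48.8 eRPKM. In control liver 9 of 11 libraries were at 0, where 3 reads would have given between 0.678 and 1.06 eRPKM, and the highest, ID125319, was at 0.506 eRPKM. MycVD tumours lay below every Myc and Myc-off ID and overlapped with control liver at the low end. The log2 fold change of MycVD over Myc tumours was -3.84 ± 0.41, a fall exceeded by 1 gene. Reads pooled per group and scaled by depth gave a ratio to control liver of 19.6 for MycVD tumours (67 reads; exact 95% interval 6.41 to 97.2), of 544 for Myc-off tumours (1168 reads; 186 to 2642) and of 396 for Myc tumours (2379 reads; 135 to 1924). Of the 1168 Myc-off reads 914 came from ID150584, and without that ID, left out after the values were seen, the ratio was 189 (254 reads; 63.8 to 920.5), below that of Myc tumours. Control liver held 3 reads of Clps in all, and the intervals cover counting error only.

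Ckm encodes the muscle form of creatine kinase, which passes phosphate between creatine phosphate and ATP. MycVD tumours had 0.0905, 1.10 and 3.03 eRPKM as the lowest, median and highest over IDs. The Myc-off IDs stood at 24.7 (ID150584), 1.09 (ID151964) and 0.275 (ID153344) eRPKM. Myc tumours had 6.81, 14.8 and 21.1 eRPKM. Of the control libraries 10 were at 0, where 3 reads would have given between 0.237 and 0.376 eRPKM, and ID128994 was at 0.290. MycVD and Myc tumours did not overlap, and the Myc-off group was split, with 1 ID above every Myc tumour ID and the other 2 in the range of MycVD tumours. The log2 fold change was -3.08 ± 0.43 for MycVD over Myc tumours. For Myc-off over Myc tumours it was -2.12 ± 0.60, or -3.63 without ID150584. The pooled ratio to control liver, which held 3 reads, was 52.6 for MycVD tumours (180 reads; exact 95% interval 17.7 to 257), 352 for Myc-off tumours (756 reads; 120.0 to 1712) and 586 for Myc tumours (3517 reads; 200.4 to 2843). Of the 756 Myc-off reads 726 came from ID150584, and the ratio without that ID was 22.3 (30 reads; 6.93 to 114), below that of MycVD tumours. Without ID153344 it was 558 (748 reads; 190.1 to 2710.2). These intervals, too, cover counting error only and not the spread between IDs.

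Stk39 encodes the kinase SPAK, which WNK kinases activate and which phosphorylates the cation-chloride cotransporters of the cell membrane. Its lowest, median and highest levels over IDs were 0.448, 1.15 and 3.92 eRPKM in MycVD tumours. The Myc-off IDs were at 6.07 (ID150584), 1.83 (ID151964) and 1.86 (ID153344) eRPKM. Myc tumours had 7.55, 13.3 and 19.6 eRPKM, and control liver 0.842, 1.44 and 2.34. Myc tumours stood alone above all 3 other groups, and MycVD tumours, with a mean of 1.5003 ± 1.03 eRPKM, and control liver, with a mean of 1.53 ± 0.519, overlapped throughout. Log2 fold changes were -2.86 ± 0.25 for MycVD over Myc tumours, -1.99 ± 0.36 for Myc-off over Myc tumours and -0.12 ± 0.23 for MycVD over control liver, with a 95% interval of -0.57 to 0.32. Among single libraries 1 Myc tumour went down into the MycVD range: tumour B of ID128992 was at 2.45 eRPKM, whereas tumour A was at 12.6.

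Lgi2 encodes a secreted protein of the LGI family, known from the nervous system, where the family binds the receptors ADAM22, ADAM23 and ADAM11. MycVD tumours had 0.0641, 2.51 and 13.8 eRPKM as the lowest, median and highest over IDs, the lowest from 1 read. The Myc-off IDs stood at 2.05 (ID150584), 0.846 (ID151964) and 4.08 (ID153344) eRPKM. Myc tumours had 13.2, 26.9 and 39.9 eRPKM, and control liver 0.178, 0.330 and 0.838. Myc tumours were above all Myc-off and control IDs, and the highest MycVD ID, ID133079, passed the lowest Myc tumour ID, ID126948, at 13.2 eRPKM. Fitted log2 fold changes were -3.19 ± 0.49 for MycVD over Myc tumours, -3.38 ± 0.69 for Myc-off over Myc tumours and 4.84 ± 0.48 for Myc tumours over control liver. With recovered depth as a covariate, the value for Myc-off over Myc tumours was -2.02 and that for Myc tumours over control liver 3.49.

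Lama1 encodes the alpha-1 chain of laminin, which joins with a beta and a gamma chain into the laminin of early basement membranes. Its lowest, median and highest levels over IDs were 0.0929, 2.87 and 18.5 eRPKM in MycVD tumours. The Myc-off IDs were at 28.7 (ID150584), 9.43 (ID151964) and 10.4 (ID153344) eRPKM. Myc tumours had 12.5, 24.5 and 35.05 eRPKM, and control liver 0.938, 1.98 and 5.36. Myc and Myc-off tumours overlapped, the highest MycVD ID (ID133079) lay inside the range of Myc tumours, and the MycVD IDs ran from below to above the whole control range. Fitted log2 fold changes were -3.01 ± 0.48 for MycVD over Myc tumours, -0.68 ± 0.67 for Myc-off over Myc tumours and 0.18 ± 0.43 for MycVD over control liver (95% interval -0.65 to 1.02). The lowest MycVD value rested on 7 reads.

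**Figure D1:**
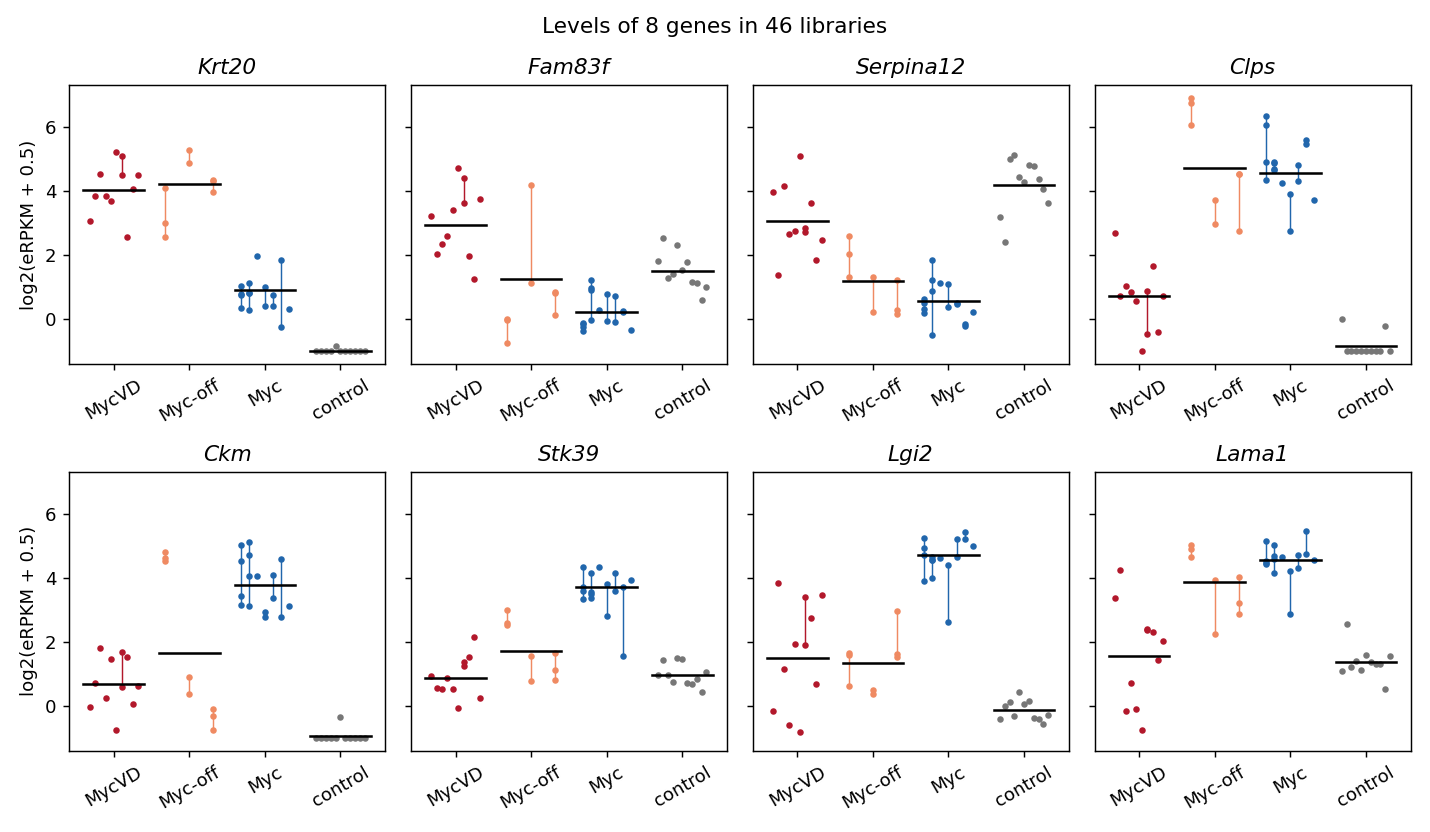
Level of each of the 8 genes on the log2(eRPKM + 0.5) scale (vertical axis) in all 46 libraries, with MycVD, Myc-off, Myc and control libraries from left to right. Points joined by a line are tumours of the same animal ID, and the black bar is the mean over IDs. Krt20 stood near the same height in MycVD and Myc-off tumours, while Lgi2 and Stk39 stood low in both.

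Set beside all genes, MycVD and Myc ID means did not overlap for 6 of the 8 genes (all but Lgi2 and Lama1), where 2.1% of the 14566 genes tested did not overlap (0.783% higher and 1.32% lower). The share of all tested genes past an adjusted p of 0.05 was 15.8% in that comparison (limma with Benjamini-Hochberg adjustment). Nothing is read from these counts, since this difference chose the genes. The rule has no threshold: the number of genes with a larger rise was 11 for Krt20, 20 for Fam83f and 22 for Serpina12, and the number with a larger fall was 1 for Clps, 2 for Lgi2, 3 for Ckm, 4 for Lama1 and 6 for Stk39. Leaving out each of the 31 IDs in turn kept every one of the 8 differences on its side. The range was -4.06 to -3.65 for Clps, the largest of the 8 in size, and 2.29 to 2.70 for Serpina12, the smallest. Only the 10 MycVD and 7 Myc IDs enter these differences. Genes chosen for large differences would keep their side, so nothing is read from this.

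The fold changes of Myc-off tumours over control liver use no library of the groups that chose the genes, and the 8 genes were tested there. Their SE and p rest on a spread estimated over all 4 groups in 1 fit, the MycVD and Myc IDs included. Krt20, Clps, Ckm and Lama1 were higher in Myc-off tumours and Serpina12 was lower, 5 of 8 past the threshold, where 58.3% of all tested genes passed (37.3% higher and 20.9% lower). ID means did not overlap for 5 of the 8 (Krt20, Serpina12, Clps, Lgi2 and Lama1), where 40% of all tested genes did not overlap (26.4% higher and 13.7% lower). Most genes passed here, and neither count sets the 8 genes apart. Krt20 rose by 5.21 ± 0.36 (limma adjusted p = 2.4e-13), with 9.85 to 33.6 eRPKM in Myc-off IDs and at most 0.0579 in control liver. Clps rose by 5.56 ± 0.54 (adjusted p = 3.6e-10) and lay higher in 3 of 3 Myc-off IDs than in every control library. Control liver held 1 read of Krt20, and the pooled ratio was 2970 (2125 reads; exact 95% interval 532 to 117360), so the order of size is poorly fixed. That interval also leaves out the spread between IDs.

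Lama1 rose by 2.51 ± 0.63 (adjusted p = 0.0011), at 9.43 to 28.7 eRPKM in Myc-off IDs and 0.938 to 5.36 in control liver. Ckm rose by 2.59 ± 0.57 (adjusted p = 0.00024), but by 1.09 (adjusted p = 0.038) without ID150584, the ID with 24.7 eRPKM. Its ID means overlapped, since Myc-off ID153344 was at 0.275 and control ID128994 at 0.290 eRPKM. Serpina12 fell by 2.997 ± 0.54 (adjusted p = 2.1e-05), with all 3 Myc-off IDs under the lowest control library. Lgi2 differed by 1.47 ± 0.65 (adjusted p = 0.054), with all 3 Myc-off IDs above the highest control library, and Stk39 by 0.74 ± 0.34 (adjusted p = 0.058). Both passed the threshold under some other settings and not under others, with adjusted p from 0.013 to 0.30 for Lgi2 and from 0.0087 to 0.81 for Stk39. Fam83f differed by -0.25 ± 0.55 (adjusted p = 0.72), with a 95% interval of -1.33 to 0.84, and the sign turned to 0.49 without ID150584 and to 0.06 without ID153344.

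**Figure D2:**
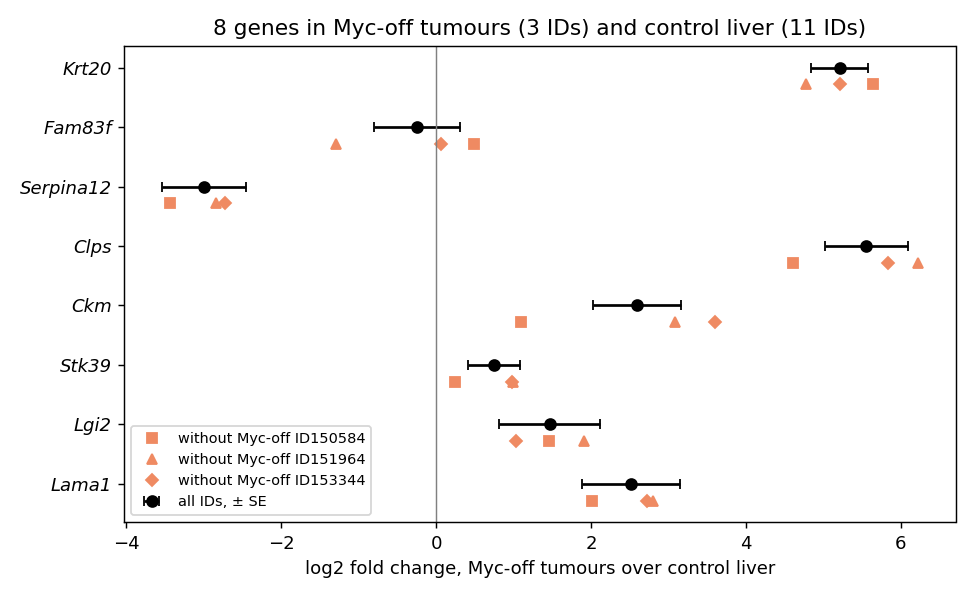
Log2 fold change of each gene for Myc-off tumours over control liver (horizontal axis, 0 meaning no difference), with black points and bars for the estimate ± SE over 3 Myc-off and 11 control IDs, and coloured symbols for the estimate without 1 Myc-off ID. Krt20, Clps and Lama1 stayed right of 0 and Serpina12 left of it whichever Myc-off ID was left out, and Ckm moved to 1.09 without ID150584.

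The other comparisons share tumours with the one that chose the genes, so their values are given side by side with no test. Myc tumours over control liver gave 5.40 ± 0.40 for Clps, 4.84 ± 0.48 for Lgi2, 4.72 ± 0.42 for Ckm, 3.20 ± 0.47 for Lama1, 2.74 ± 0.25 for Stk39, 1.89 ± 0.27 for Krt20, -1.28 ± 0.41 for Fam83f and -3.63 ± 0.40 for Serpina12. ID means did not overlap for 7 of the 8 (all but Fam83f), where 53.8% of all tested genes did not overlap (35.1% higher and 18.7% lower) and 80% passed the threshold (50.4% higher and 29.7% lower). MycVD tumours over control liver gave 5.00 ± 0.24 for Krt20, 1.65 ± 0.44 for Lgi2, 1.63 ± 0.38 for Ckm, 1.56 ± 0.36 for Clps and 1.43 ± 0.37 for Fam83f. The other 3 were 0.18 ± 0.43 for Lama1, -0.12 ± 0.23 for Stk39 and -1.11 ± 0.36 for Serpina12. Here ID means were apart for 1 of the 8, Krt20, where 40.5% of all tested genes did not overlap (25.8% higher and 14.7% lower) and 80.2% passed (49.2% higher and 31.1% lower). Myc-off over Myc tumours had 3 of the 8 apart (Krt20, Stk39 and Lgi2), where 45.5% of all tested genes did not overlap (19.6% higher and 25.9% lower) and 50.7% passed (22.8% higher and 28% lower). Clps in that comparison was 0.16 ± 0.57, which turned to -0.79 without ID150584, and Serpina12 was 0.63 ± 0.57.

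**Figure D3:**
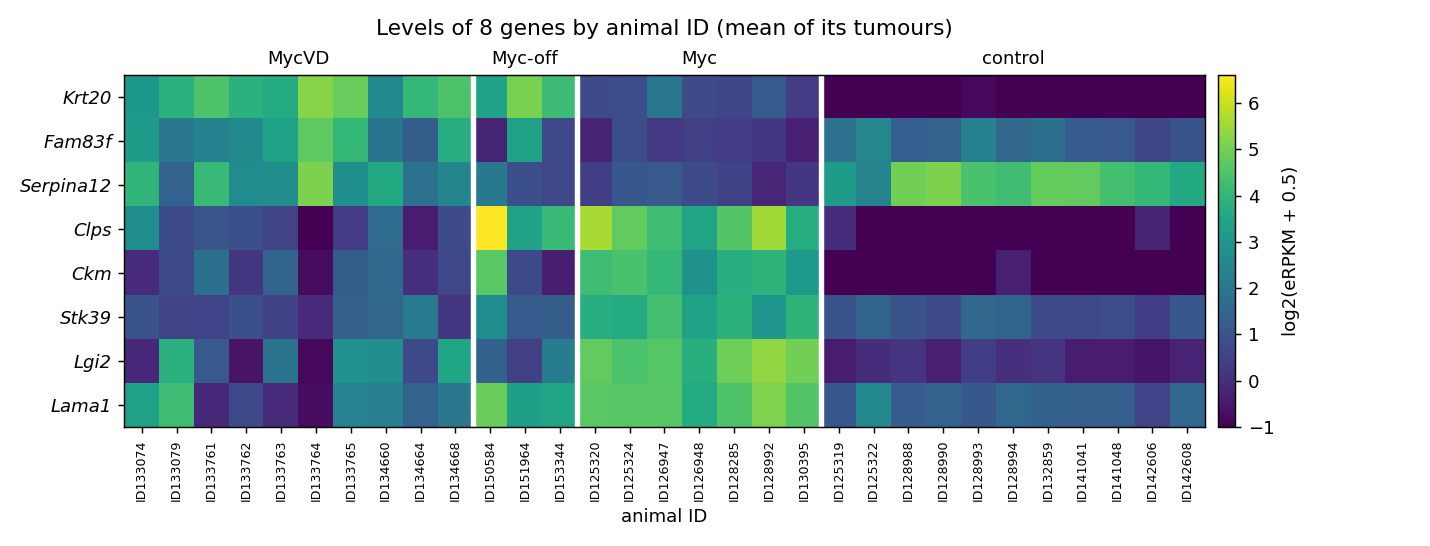
Level of each gene (rows) in each of the 31 animal IDs (columns, grouped as MycVD, Myc-off, Myc and control from left to right), coloured by log2(eRPKM + 0.5). The lower 5 rows are bright in Myc tumours and dark in most MycVD tumours, and ID133764 holds the darkest MycVD cells in those rows and the brightest in the upper 3.

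Within the MycVD group the 8 genes did not vary alike. The highest ID was 6.87 times the lowest for Krt20, 8.76 times for Stk39, 13.8 times for Fam83f and 16.0 times for Serpina12. The spread reached 33.4 times for Ckm, 199 times for Lama1 and 216 times for Lgi2. These 3 ratios rest on few reads in ID133764, the lowest ID: 1 for Ckm, 7 for Lama1 and 1 for Lgi2. The next lowest IDs were at 0.475 eRPKM for Ckm (ID133074), 0.404 for Lama1 (ID133761) and 0.160 for Lgi2 (ID133762). In Myc tumours the same 7 genes and Clps had a highest ID between 2.59 (Stk39) and 4.69 times (Clps) the lowest. The 2 groups are not alike here, since averaging tumours narrows a range. Myc IDs were mostly means of several tumours (16 libraries from 7 IDs), and MycVD IDs mostly single tumours (11 from 10). Single Myc tumour libraries ran wider, from 2.45 to 19.6 eRPKM for Stk39 and from 0.353 to 3.44 for Krt20. The MycVD animal ID133764 held the highest of 10 levels of Krt20 (37.1 eRPKM), Fam83f (26.1) and Serpina12 (34.0) and the lowest level of Clps (0), Ckm (0.0905), Stk39 (0.448), Lgi2 (0.0641) and Lama1 (0.0929). The levels of this animal were among those by which the genes were chosen, so nothing is read from its place. Its depth of 7.81 M reads and its marker sums of 967 eRPKM for hepatocytes and 42.0 for cholangiocytes lay inside the MycVD range (849 to 1318 and 29.9 to 114).

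On the other side, ID133079 had the highest MycVD levels of Lgi2 (13.8 eRPKM) and Lama1 (18.5) and the lowest of Serpina12 (2.12), while its Stk39 was at 0.979. Among Myc tumours, ID126948 was the lowest of 7 IDs for Clps, Ckm, Lgi2 and Lama1. Its tumour C was at 6.20 eRPKM for Clps, 5.64 for Lgi2 and 6.81 for Lama1, the lowest of all 16 Myc tumour libraries. Its tumour A was at 14.6, 20.8 and 18.2 eRPKM for the same 3 genes. For Lgi2 and Lama1, tumour A also lay under the next lowest Myc IDs, at 21.5 (ID125324) and 22.5 eRPKM (ID128285). For Clps, tumour A lay above ID130395, at 12.6 eRPKM. Both tumours had similar Ckm, at 6.41 eRPKM in tumour C and 7.21 in tumour A, under the next ID at 8.25 (ID130395).

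In the Myc group, tumours of 1 animal differed about as much as animals did for some genes. The 4 tumours of the Myc animal ID125320 ran from 19.7 to 80.4 eRPKM for Clps and from 8.46 to 32.0 for Ckm. Over the 7 Myc IDs the ranges were 10.4 to 48.8 and 6.81 to 21.1 eRPKM. In the MycVD animal ID133765, tumour B had 3.21 eRPKM of Lgi2 and 0.224 of Clps, and tumour A had 10.1 and 1.34. Its Lama1 was 4.62 in A and 4.81 in B. These Clps values rested on 1 read in B and 5 in A. Over MycVD IDs Lgi2 ran much wider, from 0.0641 to 13.8 eRPKM. In the 3 tumours of the Myc-off animal ID150584, Ckm was between 22.5 and 27.6 and Clps between 65.8 and 120.2 eRPKM. All 5 tumours of the other Myc-off animals had Ckm between 0.0951 and 1.38 eRPKM, so the split of Ckm in Myc-off tumours followed the animal.

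Across IDs inside a group, 56 relations between pairs of the 8 genes were computed (28 pairs in each of the MycVD and Myc groups), and none passed adjustment over the 56, by Pearson's r or by Spearman's rho. Before adjustment 5 Pearson and 3 Spearman values were under 0.05. In MycVD tumours Krt20 and Clps gave r = -0.75 (permutation p = 0.012, adjusted 0.41) and rho = -0.66 (permutation p = 0.045, adjusted 0.57) over 10 IDs, and r = -0.61 without the 2 IDs farthest from the median of Krt20. In Myc tumours Lgi2 and Lama1 gave r = 0.89 over 7 IDs, which turned to -0.73 without ID126948 and ID128992 and so rested on them.

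Each gene was also set against all other tested genes by Pearson's r of log2 levels over the 31 IDs, after the mean of each group had been subtracted. These r are descriptions over IDs that share groups, depth and sequencing. The likest gene to Krt20 was B3gnt7 (r = 0.85), which encodes a glycosyltransferase, followed by Sparcl1 (0.77) and Mrgprb2 (0.72). For Fam83f it was the myosin gene Myo1c (0.81), for Serpina12 its relative Serpina5 (0.77), for Clps the ion exchanger gene Slc24a3 (0.76) and for Ckm the amino acid oxidase gene Dao (0.78). For Stk39 it was Tceal7 (0.68), for Lgi2 Dcdc2a (0.80), and for Lama1 the drug exporter gene Abcc1 (0.85). Without the 2 farthest IDs, r for Ckm and Dao was 0.51, for Clps and Slc24a3 0.58, and for Lama1 and Abcc1 0.75. Abcc1 stood at 4.21 ± 3.78 eRPKM in MycVD tumours and 12.5 ± 1.85 in Myc tumours, and Slc24a3 at 0.739 ± 0.803 in MycVD tumours and 3.33 ± 0.969 in Myc tumours. Log2 fold changes of MycVD over Myc tumours were -1.84 for Abcc1, -1.83 for Slc24a3 and -1.78 for Dao. The other likest genes differed less: Serpina5 by 0.69, Myo1c by 0.50, B3gnt7 by 0.30, Tceal7 by -0.37 and Dcdc2a by -0.10.

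Relatives and partners of the 8 genes were tested between MycVD and Myc tumours, where 6.14% of all tested genes were higher and 9.69% were lower (38.8% of the calls were higher, or 54.0% after median-ratio scaling) and the median log2 fold change was -0.05. For the LGI family and its receptors, 1 of 4 tested genes fell and 0 rose (median -0.35). This was the receptor gene Adam22, at 0.854 ± 0.255 eRPKM in MycVD tumours and 3.14 ± 0.711 in Myc tumours, a fold change of -1.42 ± 0.12 (limma adjusted p = 6.3e-09) with 10 of 10 MycVD IDs under the lowest Myc tumour ID. For laminins and their partners, 1 of 18 fell and 0 rose (median 0.03). It was Lamb1, which encodes the beta-1 chain that pairs with the product of Lama1. Its level was 9.98 ± 7.004 eRPKM in MycVD tumours and 22.7 ± 3.50 in Myc tumours, a fold change of -1.397 ± 0.27 (adjusted p = 0.00074). Its IDs overlapped: MycVD ID133764 was at 24.8 eRPKM and ID133079 at 18.0, inside the Myc range of 16.9 to 28.7. ID133764, the highest MycVD ID for Lamb1, was the lowest for Lama1 (0.0929 eRPKM). The gamma-1 chain gene Lamc1 was at 46.6 ± 6.52 eRPKM in MycVD tumours and 44.4 ± 4.61 in Myc tumours, and did not pass.

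Of 11 tested genes of the WNK-SPAK pathway 2 fell and 1 rose (median -0.07). The sodium-potassium-chloride cotransporter gene Slc12a2, a substrate of SPAK, fell by 0.39 ± 0.09 (adjusted p = 0.0033), and Cab39, which encodes an activator of SPAK, rose by 0.26 ± 0.08 (adjusted p = 0.030). Neither passed with recovered depth as a covariate (adjusted p = 0.061 for Slc12a2 and 0.26 for Cab39). Of 4 tested genes of the creatine pathway none passed in either direction (median -0.09), and the brain form Ckb was at 21.8 ± 11.0 eRPKM in MycVD tumours and 21.6 ± 6.16 in Myc tumours.

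Of 17 tested serpins of clade A 8 rose and 0 fell (median 0.52). Serpina11 rose by 0.81 ± 0.10 (adjusted p = 1.8e-06), to 41.4 ± 7.18 eRPKM in MycVD tumours, against 23.3 ± 3.09 in Myc tumours. Serpina4-ps1 (1.49 ± 0.44), Serpina1d (0.84 ± 0.14) and Serpina1e (0.76 ± 0.21) were the other large rises, and Serpina1a to Serpina1e are near-identical copies whose reads may have been divided between them. With recovered depth as a covariate Serpina1e (adjusted p = 0.066) and Serpina4-ps1 (adjusted p = 0.073) did not pass. Of the 9 hepatocyte markers 6 rose and 0 fell in the same comparison, led by the asialoglycoprotein receptor gene Asgr1 at 0.83 ± 0.23 (adjusted p = 0.090 with recovered depth as a covariate) and the transthyretin gene Ttr at 0.78 ± 0.10, and their part in the values of Serpina12 and its relatives was not tested.

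Of 6 tested keratins other than Krt20, 2 rose and 0 fell (median 0.35). Krt8 rose by 0.33 ± 0.08 and Krt18 by 0.26 ± 0.07, both keratins of hepatocytes, and neither passed with quantile normalisation (adjusted p = 0.060 for Krt8 and 0.21 for Krt18). Of 8 tested cholangiocyte markers, out of 10, 2 rose and 0 fell: the adhesion gene Epcam by 1.84 ± 0.50 (adjusted p = 0.012) and Cldn7 by 0.70 ± 0.23 (adjusted p = 0.038). Cldn7 did not pass with recovered depth as a covariate (adjusted p = 0.067), nor in several fits with 1 ID left out. Of 9 tested genes of the FAM83 family and casein kinase 1, falls numbered 2 and rises 0 (median -0.19). Fam83b fell by 1.44 ± 0.34 and Fam83e by 0.67 ± 0.15, the opposite side to Fam83f, and neither passed with depth as a covariate (adjusted p = 0.11 for Fam83b and 0.10 for Fam83e).

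**Figure D4:**
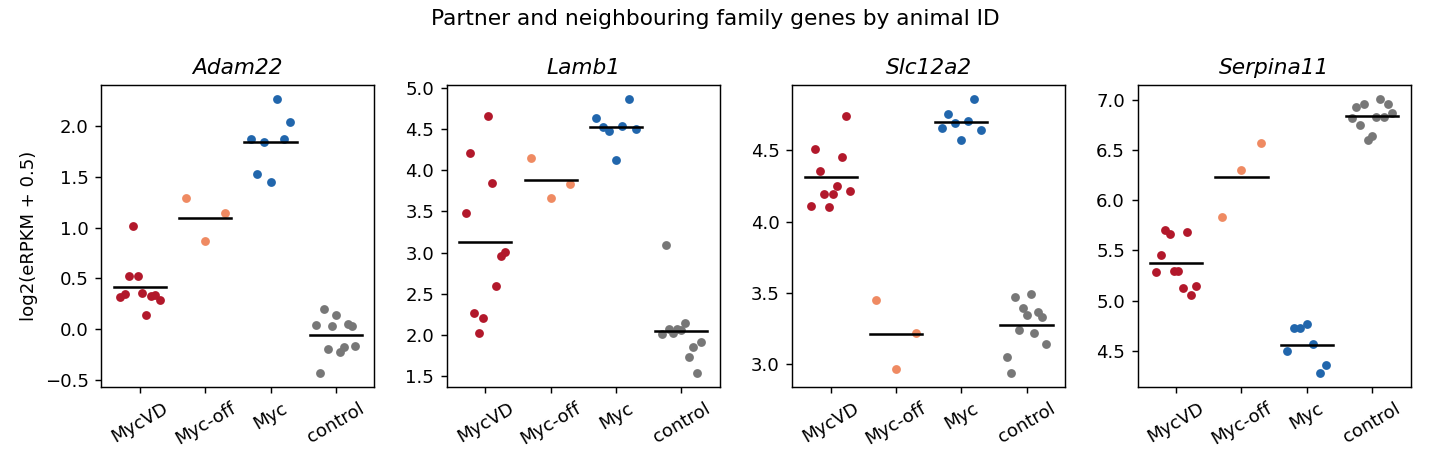
Level on the log2(eRPKM + 0.5) scale (vertical axis, with its own range in each panel) of Adam22, Lamb1, Slc12a2 and Serpina11 in each animal ID (points), with MycVD, Myc-off, Myc and control IDs from left to right and the mean as a black bar. All MycVD points of Adam22 lie under those of Myc tumours, and Serpina11 is lowest in Myc tumours.

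The same lists differed in another way between Myc-off tumours and control liver, where the median over all tested genes was 0.17, or -0.01 after median-ratio scaling, and where 37.3% of all tested genes were higher and 20.9% lower. Rises numbered 12 and falls 0 among the 18 laminin genes (median 1.24), led by Lama5 at 2.81 ± 0.23, Lamb2 at 2.32 ± 0.29, the integrin gene Itga6 at 1.93 ± 0.26 and Lamb1 at 1.83 ± 0.36. Of 6 keratins 4 rose and 0 fell (Krt7 by 4.26 ± 0.70, Krt19 by 2.15 ± 0.55, Krt18 by 0.45 ± 0.09, Krt8 by 0.42 ± 0.11), with a median of 0.43, and Krt19 did not pass without Myc-off ID151964 (adjusted p = 0.062). The 17 clade A serpins had 11 falls and 1 rise (median -0.51), led by Serpina4-ps1 at -4.99 ± 0.59 and Serpina3m at -2.56 ± 0.55, and the exception was Serpina3g at 1.43 ± 0.41. The falls include Serpina9, which reached 1 eRPKM in control liver only, so that its fall was built in by the filter. Among 4 LGI family and receptor genes (median -0.09), Adam22 rose by 1.16 ± 0.16 and Lgi4 by 0.96 ± 0.33, while Adam23 fell by 2.48 ± 0.35 and Adam11 by 1.15 ± 0.34.

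In that comparison, beside the same 37.3% higher and 20.9% lower over all genes, the WNK-SPAK pathway had 4 rises and 2 falls among 11 genes, with a median of 0.22, led by Wnk4 at 1.91 ± 0.25 among rises and Cab39l, a relative of Cab39, at -0.64 ± 0.09 among falls. Slc12a2 was at 8.85 ± 1.56 eRPKM in Myc-off tumours and 9.22 ± 1.13 in control liver and did not pass, while it was lower in Myc-off than in Myc tumours (25.5 ± 1.67 eRPKM) by 1.49 ± 0.12 (adjusted p = 3.0e-11). The creatine pathway had 2 rises and 1 fall among 4 genes, with a median of 0.78: the creatine transporter gene Slc6a8 rose by 2.16 ± 0.19, Ckb rose by 1.69 ± 0.30 and Gamt, which encodes an enzyme of creatine synthesis, fell by 0.77 ± 0.13. The FAM83 and casein kinase list had 5 rises and 0 falls among 9 genes (median 0.39), led by Fam83d at 3.40 ± 0.19 and Fam83b at 3.21 ± 0.44, and 1 of the rises, Fam83e at 0.63 ± 0.20, turned to -0.16 with quantile normalisation.

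Several of the 8 genes are known from other organs, so markers of those organs were examined. Of 19 pancreatic acinar markers 4 passed the filter on low values. The summed level of the 19 was 13.9 to 34.6 eRPKM in MycVD libraries and 14.8 to 33.1 in Myc-off libraries. It was 13.2 to 30.6 in Myc tumour libraries and 24.6 to 43.1 in control libraries. The control sum (median 30.4) was mostly 1 gene, Cela1, with a mean of 29.8 eRPKM there. The trypsinogen gene Prss1 was at 0 in all 46 libraries, the lipase gene Pnlip reached at most 0.0843 eRPKM, the carboxypeptidase gene Cpa1 at most 0.303 and the acinar factor gene Ptf1a at most 0.0844, while Clps reached 120.2. Between MycVD and Myc tumours 0 of the 4 tested pancreatic markers passed in either direction, with a median of 0.13. In Myc-off tumours against control liver the acinar genes Bhlha15 (3.26 ± 0.38) and Sycn (3.15 ± 0.46) rose and Cela1 (-2.66 ± 0.31) fell, where 37.3% of all tested genes were higher and 20.9% lower. Cela2a was also lower but reached 1 eRPKM in control liver only, so that its fall was built in by the filter.

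Of 17 skeletal muscle markers 5 were tested, with a summed level of 6.38 to 13.2 eRPKM in MycVD libraries, 5.04 to 21.3 in Myc-off libraries, 7.73 to 14.9 in Myc tumour libraries and 7.14 to 14.8 in control libraries. The myosin genes Myh1, Myh2 and Myh4 reached at most 0.0729, 0.0883 and 0.0761 eRPKM in any library, while Ckm reached 34.3. Between MycVD and Myc tumours 1 of the 5 fell, Casq1 by 0.56 ± 0.18 (adjusted p = 0.030), which did not pass with quantile normalisation (adjusted p = 0.17), and the median was -0.09. In Myc-off tumours against control liver 4 of the 5 rose, against 37.3% of all tested genes, led by Acta1 at 1.963 ± 0.43, and Neb fell by 2.58 ± 0.26. Casq1, 1 of the 4, turned to -0.10 with quantile normalisation, against 0.64 ± 0.24 without it. Of 9 adipocyte markers 4 were tested. The summed level of the 9 was 44.4 to 118 eRPKM in MycVD libraries and 56.3 to 192 in Myc-off libraries. It was 40.02 to 106 in Myc tumour libraries and 150.4 to 259 in control libraries. The control sum (median 211) was mostly 1 gene, Pck1, with a mean of 184.6 eRPKM there. The defining adipocyte gene Adipoq was at most 0.243 eRPKM and Plin1 at most 0.0550 in any library, and between MycVD and Myc tumours 0 of the 4 passed, with a median of 0.26.

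Beside Krt20, 12 intestinal markers were examined, of which 7 were tested. The summed level of the 12 was 29.5 to 164 eRPKM in MycVD libraries and 123 to 211 in Myc-off libraries. It was 79.1 to 175 in Myc tumour libraries and 77.5 to 109 in control libraries. The control sum (median 95.1) was mostly 1 gene, Fabp2, with a mean of 78.6 eRPKM there. The intestinal factor gene Cdx2 had a median of 0 over all libraries and reached 1.03 eRPKM at most, and the mucin gene Muc2 reached 0.172. Between MycVD and Myc tumours 1 of the 7 fell and 0 rose: Tff3, a gene of a secreted trefoil peptide, fell by 1.61 ± 0.55 (adjusted p = 0.044), which did not pass with recovered depth as a covariate (adjusted p = 0.38). In Myc-off tumours against control liver 5 of the 7 rose and 0 fell, against 37.3% higher and 20.9% lower over all tested genes, led by Tff3 at 6.45 ± 0.73 and the villin gene Vil1 at 3.62 ± 0.48.

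The cholangiocyte markers had a summed level of 29.9 to 124 eRPKM in MycVD libraries, 53.3 to 234 in Myc-off libraries, 23.8 to 63.1 in Myc tumour libraries and 25.9 to 48.0 in control libraries, so the highest libraries were in the 2 groups with high Krt20, while the MycVD range overlapped with those of Myc tumours and control liver. Of the 8 tested, 7 rose and 0 fell in Myc-off over Myc tumours (median 1.55), where 22.8% of all tested genes were higher and 28% lower. In Myc-off tumours over control liver 5 rose and 0 fell (median 1.404), where 37.3% were higher and 20.9% lower. Their part in the level of Krt20 was not tested. Hepatocyte markers in Myc-off tumours over control liver had 1 fall (Asgr1, -1.26 ± 0.30) and 0 rises among 9, with a median of -0.13, beside the same shares over all genes.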

How the data were processed

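RNA of 46 mouse livers and liver tumours was depleted of ribosomal RNA and made into TruSeq v2 libraries, which do not mark strand, per the labels' protocols. The authors' deposited values are RPKM over exons (eRPKM). The submitters' processing notes name TopHat, TopHat2 version 2.0.8 and the build mm9; the counter, annotation and RPKM denominator were not stated there. Low values were whole multiples of a step, which gave reads for 19465 genes (100.0% of values whole within 0.001), used here for depth, read numbers and pooled ratios only.

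The 8 genes, the 13 gene lists and the tests were chosen with earlier results of these data known. Tumours sharing an ID were averaged in eRPKM, and log2(eRPKM + 0.5) was fitted with limma 3.58.1 in R 4.3.3 (4 groups in 1 fit, eBayes with trend, two-sided) for the 14566 genes reaching 1 eRPKM in 3 or more IDs (7105 removed), with Benjamini-Hochberg adjustment over all of them and a threshold of 0.05. Every adjusted p of a gene is from limma. No label says that IDs are separate animals, so p-values measure the spread between IDs. Fold changes understate those of low genes. Named genes were the 8, up to 4 called genes with the largest change per list and comparison, defining markers at 0, and the 3 genes likest to each of the 8; Lamc1, Ckb, Slc12a2 in Myc-off tumours, Cpa1, Muc2 and the Casq1 and Fam83e reversals were added after their values were seen. Wnk3, Klhl3 and Tf were not matched in the table. The values of 1 gene of the WNK-SPAK list are not reported here. Alternatives changed the pseudocount, the filter, the scaling, the tumours averaged, a depth covariate and each ID left out. Sequences come from RefSeq on GRCm38.p6, another build than the table's.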

Additional observations from a re-analysis of the deposited data

Results flagged for a closer look

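Among the 16 sets of IDs examined (8 genes in MycVD and in Myc tumours), 4 had an ID that stood far above the rest of its group. A rate by chance of about 1 set in 20 would hold for normally distributed levels only. Levels were taken in eRPKM and not on the log2 scale, and they were among those that chose the genes. Nothing is therefore read from this count. Serpina12 in MycVD ID133764 was at 34.0 eRPKM, with the nearest ID at 17.4. Clps in MycVD ID133074 was at 5.99 eRPKM, with the nearest at 2.68, and still lay under every Myc tumour ID. Lama1 in MycVD ID133079 was at 18.5 eRPKM, with the nearest at 9.78, and lay inside the range of Myc tumours. Krt20 in Myc tumour ID126947 was at 3.44 eRPKM, with the nearest at 1.71, and still lay under every MycVD ID. The Myc-off (3 IDs) and control groups (11 IDs) were not examined this way.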

How the results depend on the processing

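No paired analysis was possible because replicate numbers name samples only and the labels pair no samples across groups. The 8 differences of MycVD from Myc tumours kept their direction under every alternative run, from which nothing is read, since large differences chose these genes. With recovered depth as a covariate 959 genes passed in that comparison, against 2306 without it (61.3% and 38.8% of them higher); leaving out 1 ID gave 1500 (without Myc ID130395) to 2653. Under median-ratio scaling 54.0% of the calls there were higher, and in Myc-off over control liver 49.2%, against 64.1% as deposited, with the median of all genes at -0.01, against 0.17. The splits for Myc and MycVD tumours over control liver were 52.1% and 51.6% with it, against 62.9% and 61.3%. With a pseudocount of 0.1, Myc tumours over control liver gave 3.79 for Krt20, 7.42 for Clps and 6.87 for Ckm, and MycVD tumours over control liver 7.24, 2.99 and 3.30; with a pseudocount of 1 the first gave 1.25, 4.50 and 3.80 and Krt20 in the second 4.06. Lgi2 in Myc-off over control liver passed at 2.06 (pseudocount 0.1), 1.44 (every tumour as a sample) and 1.47 (depth covariate), and Stk39 at 0.74 (every tumour as a sample) and 0.96 (tumour A only). With the depth covariate Myc tumours over control liver gave 3.49 for Lgi2 and 2.14 for Lama1, and Myc-off over Myc tumours -2.02 for Lgi2 and, reversed, 0.38 for Lama1. With 1 ID left out, Myc-off over control liver ran from 1.03 to 1.92 for Lgi2, 0.25 to 1.00 for Stk39 and -1.29 to 0.49 for Fam83f, and Myc-off over Myc tumours from -0.79 to 0.82 for Clps, -3.63 to -1.11 for Ckm and -0.016 to 1.76 for Fam83f. Quantile normalisation reversed Fam83e (-0.16) and Casq1 (-0.10) in Myc-off over control liver. The cause of these shifts was not tested. Low values rest on few reads: control liver held 1 read of Krt20 and 3 each of Clps and Ckm in all.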
